A study of Mus musculus with 9 samples.

Results

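Genes that mark the dentate gyrus or the CA2 and CA3 fields of the hippocampus were followed across 9 hippocampal RNA-seq libraries. The 10 genes were taken by name from the matrix of raw gene counts, and all 10 were found among its 47643 genes. The 5 dentate genes were Prox1, Dsp, C1ql2, Trpc6 and Pdzd2, and the 5 CA2 and CA3 genes were Bok, Iyd, Rgs14, Pcp4 and Amigo2. The libraries came from untreated MRL/mpj mice (labelled wild type), untreated MRL/lpr mice and MRL/lpr mice treated with mesenchymal stem cells (MRL/lpr+MSC), with 3 libraries a group. All mice were 6 weeks old. MRL/lpr mice are lupus-prone animals with an insertion in Fas, and MRL/mpj mice are the control strain that the study paired with them. The strain field of the labels gives C57BL/6 for every library, and the MRL strains were taken from the series' own description and the paper. The source, dose and timing of the stem cells are not given in the sources used here, nor is a vehicle for the untreated mice in their treatment labels. The study asked how the hippocampal transcriptome of lupus mice differs before overt peripheral disease.

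The dentate gyrus is the entry station of the hippocampal circuit. Its granule cells send mossy fibres to the pyramidal cells of CA3, which in turn drive CA1, while CA2 is a small field between CA3 and CA1 with its own plasticity and a role in social memory. Each of these cell types has a characteristic set of transcripts, and Prox1, a homeobox transcription factor that sets and keeps granule cell identity, is the classic dentate marker.

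The libraries held 19475804 to 26912031 counted reads. Replicates within a group all differed by more than sampling noise. A count of 3 in a library corresponds to 0.105 to 0.163 CPM (counts scaled to library size, after correction by the trimmed mean of M values), and every one of the 10 genes was above that in every library. Fas itself did not check the labels. It was at 1.63 to 1.997 CPM in MRL/mpj, 1.33 to 2.27 CPM in MRL/lpr and 0.985 to 1.81 CPM in MRL/lpr+MSC libraries, and it was not called in any comparison. In the supplementary expression table that accompanies the paper, the columns headed MRL/lpr followed the libraries that the labels call MRL/lpr+MSC at a constant ratio, within 0.1%, for every gene compared, whereas the MRL/mpj columns followed the MRL/mpj libraries. Which of the names holds cannot be told apart here, so a group named MRL/lpr or MRL/lpr+MSC below means the libraries labelled so, and every direction between those groups rests on the labels. No batch or date is given. The paper treats its MRL/mpj and MRL/lpr columns as individual mice, but the labels do not say so of any library, and without separate mice the p-values would measure only technical spread.

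The tissue label was checked against defining transcripts. The 5 glutamatergic genes Slc17a7, Neurod2, Neurod6, Camk2a and Zbtb20 summed to 4519 to 8346 CPM, and 10 further dentate genes summed to 554 to 1374 CPM, so granule cell and pyramidal cell transcripts were present in all libraries. Transcripts of neighbouring structures were present too. The sum of 8 choroid plexus genes (Ttr among them) ran from 167 to 711 CPM in MRL/mpj, from 110 to 9765 CPM in MRL/lpr and from 101 to 4923 CPM in MRL/lpr+MSC libraries, with the highest values in MRL/lpr replicate 2 and MRL/lpr+MSC replicate 2. None of these 8 genes was at 0 counts in any library.

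Levels were compared between genes in FPKM, the authors' values divided by gene length and library size. The order rests on the authors' gene lengths. For Rgs14, Trpc6, Pdzd2, Pcp4 and Amigo2 these differed from the exon lengths in the GENCODE gene annotation used here. Rgs14, with 4239 such exon bases and a mean of 140 CPM, would stand below Bok by that length. As the mean of 9 libraries, Rgs14 stood at 56.0 ± 16.2 FPKM (SD, n = 9) and Bok at 47.7 ± 7.33, and their ranges overlapped. C1ql2 (20.8 ± 6.61) and Prox1 (19.6 ± 5.95) came next and also overlapped, and the lowest Bok value (36.8) lay above the highest C1ql2 value (34.9). Dsp (10.3 ± 4.34) and Amigo2 (9.86 ± 1.15) followed. The last 4 genes, Pcp4 (6.69 ± 3.19), Pdzd2 (5.32 ± 1.40), Trpc6 (5.18 ± 1.20) and Iyd (4.96 ± 2.07), could not be ordered beyond their spread. The order of the means depended on the group, by differences within the spread of 3 libraries. Mean Bok was above Rgs14 in MRL/lpr (50.4 ± 10.7 against 46.1 ± 15.8 FPKM), as was Pcp4 above Amigo2 (9.43 ± 3.37 against 9.06 ± 0.458). In MRL/lpr+MSC libraries mean Dsp was below Amigo2 (7.16 ± 2.85 against 9.70 ± 1.47). The remaining values are in CPM, which compare 1 gene between libraries and not genes with each other.

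Prox1 (chromosome 1, 190118035 to 190170714, GRCm38) was at 191, 222 and 150 CPM in MRL/mpj replicates 1 to 3. It was at 143, 260 and 115 CPM in MRL/lpr and at 102, 160 and 144 CPM in MRL/lpr+MSC libraries. MRL/lpr replicate 2 was therefore the highest of the 9 and MRL/lpr replicate 3 the second lowest, so that 1 group spanned nearly the whole range and the groups overlapped. Dsp (chromosome 13, 38151294 to 38198577) encodes desmoplakin, a plaque protein of desmosomes that in the hippocampus is found in granule cells. It measured 117, 159 and 97.5 CPM in MRL/mpj, 82.6, 167 and 65.1 CPM in MRL/lpr, and 37.2, 89.2 and 81.0 CPM in MRL/lpr+MSC libraries. All 3 MRL/lpr+MSC values lay below all 3 MRL/mpj values, and MRL/lpr overlapped both. From its lowest to its highest library Dsp differed 4.49-fold, the widest range of the dentate genes, against 2.54-fold for Prox1.

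Prox1 and Dsp were the pair whose libraries followed each other most closely of all 45 pairs of the 10 genes, so the 250 bases before the RefSeq start of each (GRCm38.p6) are shown. Capitals mark the E-box letters CANNTG, which read the same on both strands and are bound by basic helix-loop-helix factors.
Prox1, chr1:190170828-190171077, minus strand: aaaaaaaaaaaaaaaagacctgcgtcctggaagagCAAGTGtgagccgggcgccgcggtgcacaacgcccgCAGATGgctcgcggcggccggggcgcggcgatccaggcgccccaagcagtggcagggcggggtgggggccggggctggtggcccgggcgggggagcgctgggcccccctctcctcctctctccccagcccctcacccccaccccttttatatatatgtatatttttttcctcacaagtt
Dsp, chr13:38151044-38151293, plus strand: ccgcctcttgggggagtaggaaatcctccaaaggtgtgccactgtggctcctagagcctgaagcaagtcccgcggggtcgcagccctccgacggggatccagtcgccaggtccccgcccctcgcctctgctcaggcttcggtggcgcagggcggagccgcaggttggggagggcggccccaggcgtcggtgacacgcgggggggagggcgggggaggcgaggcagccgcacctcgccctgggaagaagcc
The Prox1 window held 2 matches and 20 CG dinucleotides, and the Dsp window held 0 matches and 22 CG dinucleotides. The motif occurred in 66.2% of the 32851 promoter windows of this length, and the median window held 6 CG dinucleotides. Prox1 has a further RefSeq start with 0 matches. Over the 9 of 10 genes with a window, 3 had a match in at least 1 window (Prox1, C1ql2 and Iyd). A match is only an occurrence of these letters.

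C1ql2, a secreted C1q-like protein of mossy fibre synapses (chromosome 1, 120340582 to 120343174), was at 51.8, 49.8 and 35.6 CPM in MRL/mpj, 33.1, 70.6 and 29.4 CPM in MRL/lpr, and 38.3, 35.0 and 30.8 CPM in MRL/lpr+MSC libraries. Trpc6, a receptor-operated cation channel (chromosome 9, 8544142 to 8680741), was at 20.5, 17.9 and 14.5 CPM, 13.3, 21.3 and 15.8 CPM, and 9.85, 15.6 and 12.7 CPM in the same order of groups. Pdzd2, a protein with PDZ domains (chromosome 15, 12359711 to 12739924), was at 111, 148 and 95.8 CPM, then 111, 161 and 127 CPM, then 53.9, 120 and 111 CPM. For each of these the groups overlapped in every pairing. MRL/lpr replicate 2 was the highest of 9 libraries for 5 of the 5 dentate genes, and MRL/lpr+MSC replicate 1 the lowest for 4 of 5, all but C1ql2. Replicate 2 was also the highest within each group for Prox1, Dsp and Pdzd2, but not for C1ql2 and Trpc6. The sum of the 5 genes was highest in replicate 2 of each group, at 597 (MRL/mpj), 680 (MRL/lpr) and 420 CPM (MRL/lpr+MSC).

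**Figure D1:**
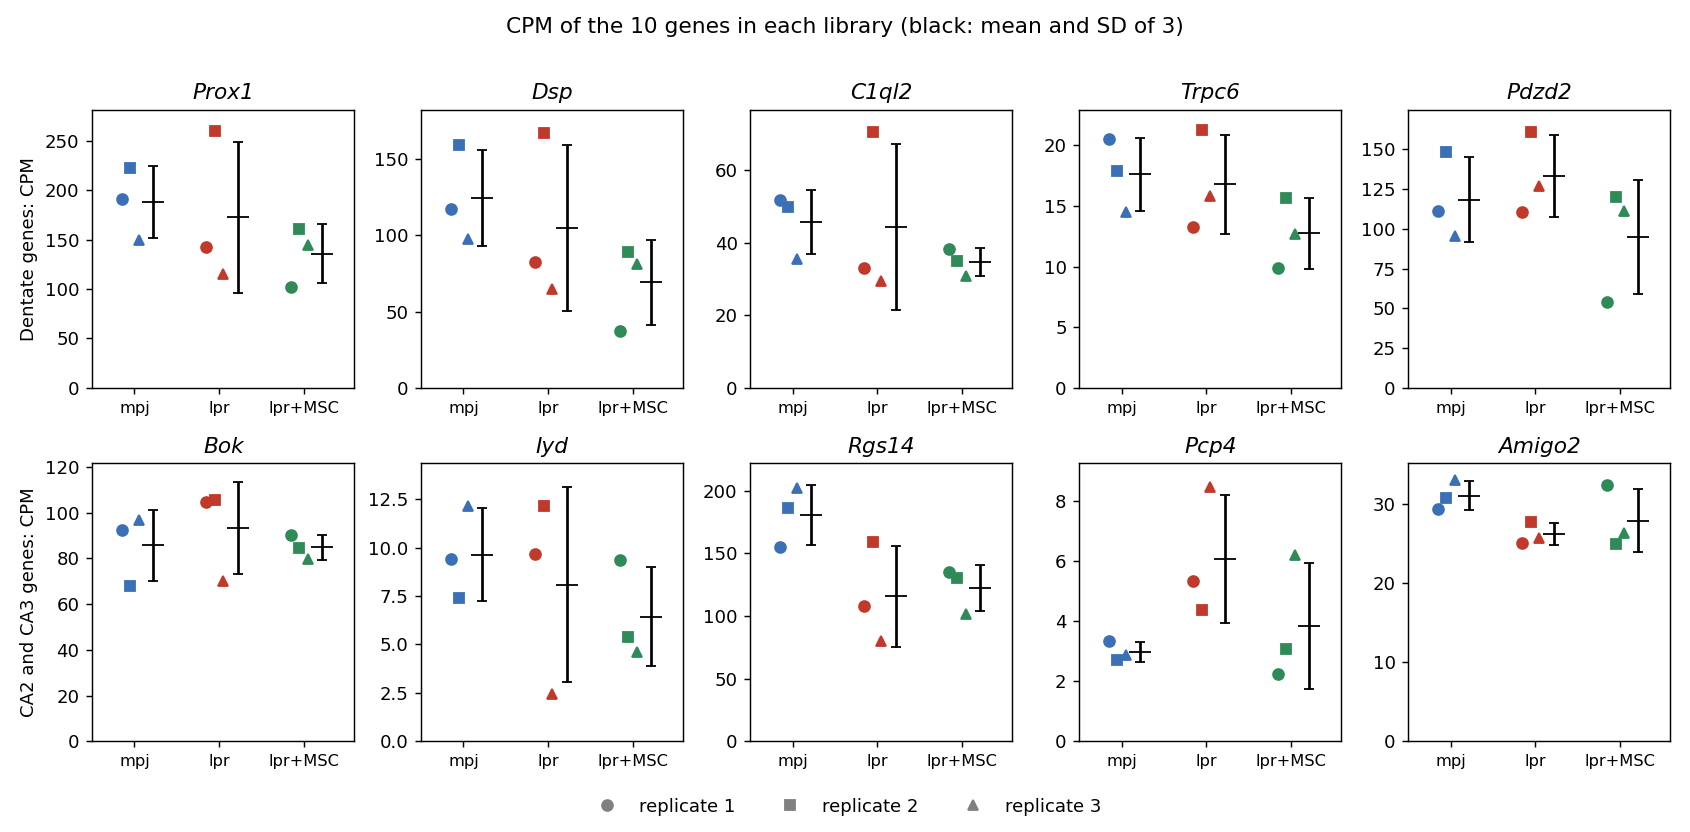
CPM of each gene by library, in 10 panels (dentate genes in the upper row, CA2 and CA3 genes in the lower), with the 3 groups on the horizontal axis and each axis of CPM starting at 0. Marker shapes are replicates, and the black bar and whiskers are the mean and SD of 3 libraries. The square of MRL/lpr tops all 5 dentate panels, reaching 260 CPM for Prox1, and the circle of MRL/lpr+MSC is at the bottom of 4 of them.

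Of the CA2 and CA3 genes, Rgs14 (chromosome 13, 55369732 to 55384687) encodes a signalling scaffold that restrains plasticity at CA2 synapses. It was at 155, 186 and 202 CPM in MRL/mpj, 108, 159 and 79.7 CPM in MRL/lpr, and 135, 130 and 101 CPM in MRL/lpr+MSC libraries. Every MRL/lpr+MSC library lay below every MRL/mpj library, and MRL/lpr replicate 2 alone of its group reached into the MRL/mpj range. Amigo2, an adhesion protein (chromosome 15, 97244125 to 97247287), varied least of the 10, with 29.4, 30.7 and 33.0 CPM in MRL/mpj, 25.1, 27.7 and 25.7 CPM in MRL/lpr and 32.4, 24.9 and 26.3 CPM in MRL/lpr+MSC libraries. MRL/lpr and MRL/mpj did not overlap for Amigo2, and its highest library was only 1.33-fold above its lowest.

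Pcp4, a small calmodulin-binding protein used as a CA2 marker (chromosome 16, 96467606 to 96525793), was scarce, with 43 to 201 counts a library. It was at 3.34, 2.71 and 2.88 CPM in MRL/mpj, 5.35, 4.39 and 8.49 CPM in MRL/lpr, and 2.23, 3.06 and 6.23 CPM in MRL/lpr+MSC libraries. The 3 MRL/lpr values were above the 3 MRL/mpj values, and MRL/lpr+MSC overlapped both. Another annotated gene on the same strand shares 243 of the 1026 exon bases of Pcp4. The identifier of that gene is not in the matrix of counts, and how reads in the shared bases were assigned is not stated. No other of the 10 genes shares exon bases on its own strand with an annotated gene. On the opposite strand the shared part was 5.17% for Dsp, 1.83% for Amigo2 and 1.59% for Prox1, and strand use in the counting is not given in the sources used here. These shares are of exons in the GENCODE gene annotation used here. Pcp4 averaged 4.30 CPM and 6.69 FPKM, so the authors' length for it was below 1026 bases. The exons they counted may therefore not be these.

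Bok, a BCL2-family protein (chromosome 1, 93685660 to 93695764), was at 92.3, 67.9 and 96.7 CPM in MRL/mpj, 104, 105 and 70.1 CPM in MRL/lpr and 90.3, 84.4 and 79.6 CPM in MRL/lpr+MSC libraries. Iyd, an iodotyrosine deiodinase (chromosome 10, 3540240 to 3554877), was at 9.38, 7.39 and 12.1 CPM, 9.68, 12.1 and 2.45 CPM, and 9.34, 5.38 and 4.60 CPM in the same order. Neither gene separated any pair of groups. The low value of Iyd in MRL/lpr replicate 3 rested on 58 counts, against 104 to 282 in the other libraries, and gave Iyd the widest range of all, 4.96-fold.

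In MRL/lpr against MRL/mpj, none of the 10 genes was called, where a call asks for an adjusted p under 0.05 by limma voom and at least a 1.5-fold difference. Over all 16697 genes tested in that comparison 5.79% were called, 569 higher and 398 lower. An unadjusted p under 0.05 was reached by 3 of the 10, beside 30.4% of all genes tested, so the share among the 10 was that of the background. The 3 were Pcp4, Rgs14 and Amigo2. Pcp4 averaged 6.08 ± 2.15 CPM in MRL/lpr and 2.98 ± 0.329 CPM in MRL/mpj (means ± SD, n = 3). The log2 fold change was 0.97 ± 0.30 (SE), with a limma adjusted p of 0.082. Rgs14 averaged 116 ± 40.02 against 181 ± 23.9 CPM, a log2 fold change of -0.69 ± 0.25 with an adjusted p of 0.121. Amigo2 averaged 26.2 ± 1.39 against 31.0 ± 1.84 CPM, a log2 fold change of -0.24 ± 0.08 with an adjusted p of 0.105. The groups did not overlap for 2 of the 10, Pcp4 (higher in MRL/lpr) and Amigo2 (lower), beside 38% of all genes tested.

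Whether Rgs14 and Pcp4 were called depended on the processing and on MRL/lpr replicate 2. Without MRL/lpr replicate 2 both passed, with log2 fold changes of -0.95 (adjusted p 0.017) and 1.15 (adjusted p 0.034). In that setting 1695 of 17120 genes tested were called. The library was the highest of its group for Rgs14 and the lowest for Pcp4, so leaving it out by itself widens both differences. With all 6 libraries kept, both were also called under library quality weights (limma adjusted p 0.037 and 0.030), beside 2065 of 16697 genes tested. Over all 15 alternatives the adjusted p ranged from 0.017 to 1 for Rgs14 and from 0.0048 to 1 for Pcp4. The dentate genes had log2 fold changes of -0.34 ± 0.36 for Dsp, -0.19 ± 0.31 for Prox1, -0.15 ± 0.34 for C1ql2, -0.10 ± 0.20 for Trpc6 and 0.18 ± 0.20 for Pdzd2. Their 95% intervals all included 0. The interval for Prox1 ran from -0.93 to 0.55, and a 1.5-fold lower value lay within the intervals of Dsp, Prox1, C1ql2 and, at its edge, Trpc6. For Bok the log2 fold change was 0.12 ± 0.20 and for Iyd -0.46 ± 0.57.

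In MRL/lpr+MSC against MRL/mpj, none of the 10 was called either, against 3.43% of 16196 genes tested. All 5 dentate genes had negative differences. Dsp averaged 69.1 ± 27.9 against 125 ± 31.4 CPM, a log2 fold change of -0.91 ± 0.35 with a limma adjusted p of 0.193. Trpc6 (-0.47 ± 0.20), Prox1 (-0.47 ± 0.21), C1ql2 (-0.39 ± 0.16) and Pdzd2 (-0.37 ± 0.33) had smaller differences on the log2 scale, and their median with Dsp was -0.47 beside 0.01 over all genes tested. Because the 5 genes vary together from library to library, as described below for the pairs, their shared sign is no count of independent observations. With Rgs14, described next, Dsp, Trpc6 and C1ql2 made 4 of the 10 with an unadjusted p under 0.05, beside 22.9% of all genes tested.

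Rgs14 had the smallest p of the 10 in this comparison, at 122 ± 18.3 against 181 ± 23.9 CPM, a log2 fold change of -0.56 ± 0.14 and an adjusted p of 0.068. Without MRL/lpr+MSC replicate 1, Rgs14 (-0.64, adjusted p 0.035) and Iyd (-0.90, adjusted p 0.0495) were called, beside 1514 of 16787 genes tested. That library was the highest of its group for both, so leaving it out by itself widens both differences. With all 6 libraries Iyd differed by -0.61 ± 0.29 on the log2 scale with an adjusted p of 0.263. Over 15 alternatives the adjusted p ranged from 0.030 to 1 for Rgs14 and from 0.0495 to 1 for Iyd. Amigo2 (-0.16 ± 0.11), Pcp4 (0.27 ± 0.38) and Bok (0.01 ± 0.14) had no unadjusted p under 0.05. The groups did not overlap for 2 of the 10, Dsp and Rgs14, beside 29.6% of all genes tested. Both comparisons use the same 3 MRL/mpj libraries, so their values are not independent of each other.

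MRL/lpr+MSC against MRL/lpr gave 0 called genes of the 10 and 0 of 16758 genes tested (0% called) by limma voom, with 647 genes (3.86%) at an unadjusted p under 0.05, none of them among the 10. The groups overlapped for all 10 genes, and did not for 9.98% of all genes tested. No other tool was run apart from limma-trend, which also called 0. The 5 dentate genes again had negative differences, from -0.24 ± 0.33 for C1ql2 through -0.28 ± 0.32 for Prox1, -0.37 ± 0.23 for Trpc6 and -0.55 ± 0.33 for Pdzd2 to -0.58 ± 0.45 for Dsp on the log2 scale. The 95% interval for Dsp ran from -1.67 to 0.52. Dsp kept a negative difference with any 1 library left out (-0.86 to -0.18). With MRL/lpr replicate 2 and MRL/lpr+MSC replicate 1 both left out, a choice that by itself raises the difference since they are the highest of one group and, for all but C1ql2, the lowest of the other, Prox1 (0.23), Dsp (0.20) and C1ql2 (0.055) had positive log2 fold changes, and Trpc6 (-0.04) and Pdzd2 (-0.05) were near 0. The CA2 and CA3 genes differed by -0.70 ± 0.42 for Pcp4, -0.15 ± 0.64 for Iyd, -0.11 ± 0.17 for Bok, 0.08 ± 0.12 for Amigo2 and 0.13 ± 0.25 for Rgs14. For Bok and Amigo2 the intervals, -0.51 to 0.29 and -0.20 to 0.36, kept a 1.5-fold difference outside.

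**Figure D2:**
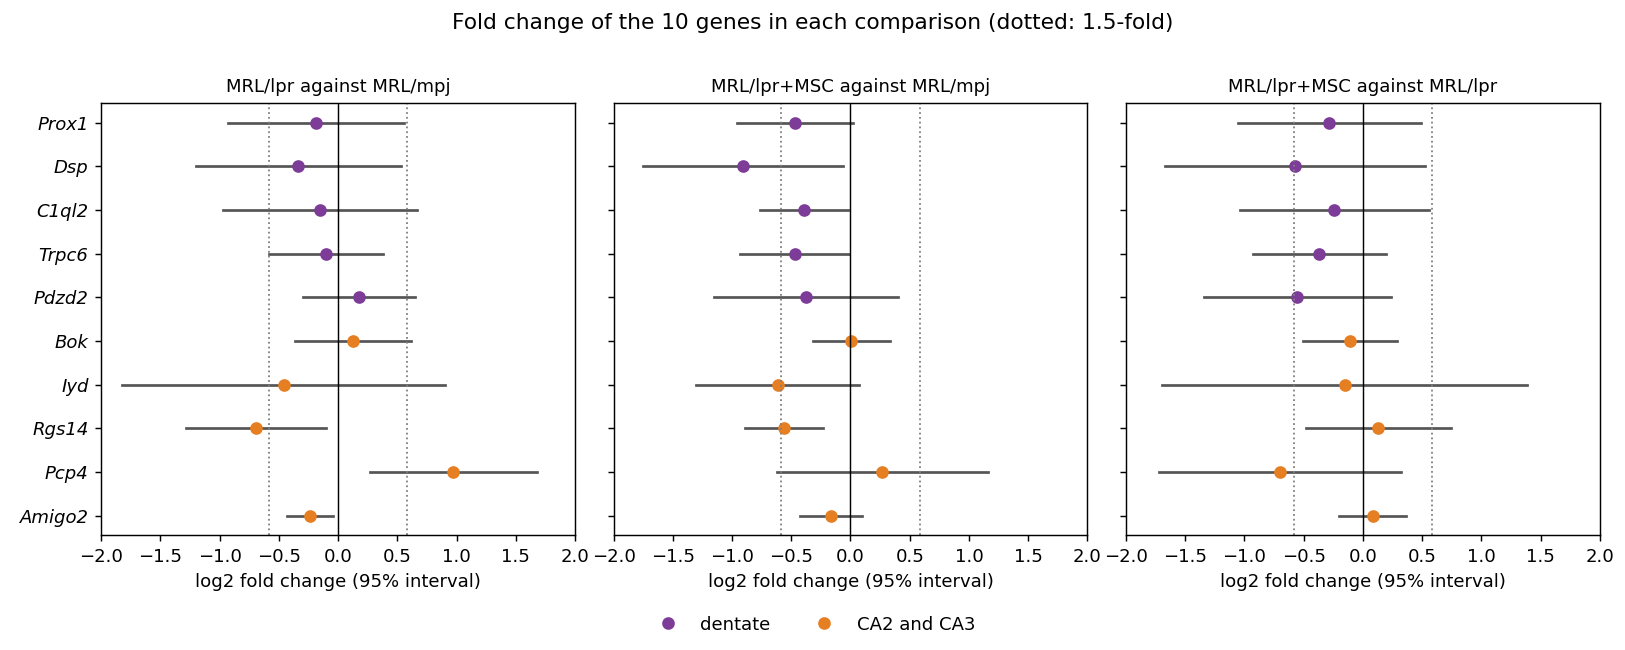
Log2 fold change of each gene (points, purple for dentate and orange for CA2 and CA3) with its 95% interval from limma voom, in 1 panel per comparison, with dotted lines at a 1.5-fold difference. Intervals of Pcp4, Rgs14 and Amigo2 leave out 0 in MRL/lpr against MRL/mpj, those of Dsp, C1ql2, Trpc6 and Rgs14 in MRL/lpr+MSC against MRL/mpj, and none in MRL/lpr+MSC against MRL/lpr. None of the 10 genes passed after adjustment.

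The dentate genes varied together across libraries more than with the other class. Of 45 pairs of the 10 genes, all 10 pairs within the dentate class had a positive Pearson r of log2 CPM over the 9 libraries, with a median of 0.82 (0.37 to 0.96), and after each group's mean was removed the median was 0.79. Among these 10 pairs, 6 had an adjusted p under 0.05 in an exact two-sided permutation test of r over the 45 pairs, and 1 did for Spearman's rho. For Prox1 and Dsp, r was 0.96 (exact permutation p 2.8e-05, adjusted p 0.0012) and rho 0.97 (exact permutation p 1.7e-04, adjusted p 0.0074). Without the 2 libraries farthest from the Prox1 median, r for that pair was 0.94. C1ql2 and Pdzd2 were the least alike, with r at 0.37 and rho at 0.27. Part of the likeness rested on the extreme libraries. The median r of the 10 dentate pairs was 0.61 (0.31 to 0.97) over the 7 libraries other than MRL/lpr replicate 2 and MRL/lpr+MSC replicate 1. For Dsp with Pdzd2 and for Trpc6 with Pdzd2, r dropped to 0.38 and 0.40 without the 2 farthest libraries, which were these same 2, and their adjusted p was 0.045 with all 9.

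Of the CA2 and CA3 genes, Pcp4 varied against the rest. The 10 pairs had a median r of 0.16 (0.38 after each group's mean was removed), from -0.80 for Rgs14 with Pcp4 to 0.78 for Iyd with Rgs14, and 0 of the 10 passed after adjustment over the 45 pairs (exact permutation test), with 5 at an unadjusted p under 0.05. For Rgs14 with Pcp4 rho was -0.72. Without the 2 libraries farthest from the median, r was -0.64 for Rgs14 with Pcp4 but 0.30 for Iyd with Rgs14, so the latter rested on those libraries. Pcp4 had a negative r with each of the other 4 genes of its class, and the 6 pairs without it were all positive, with and without the group means. The 25 pairs between the classes had a median r of 0.10, and 0 of them passed.

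**Figure D3:**
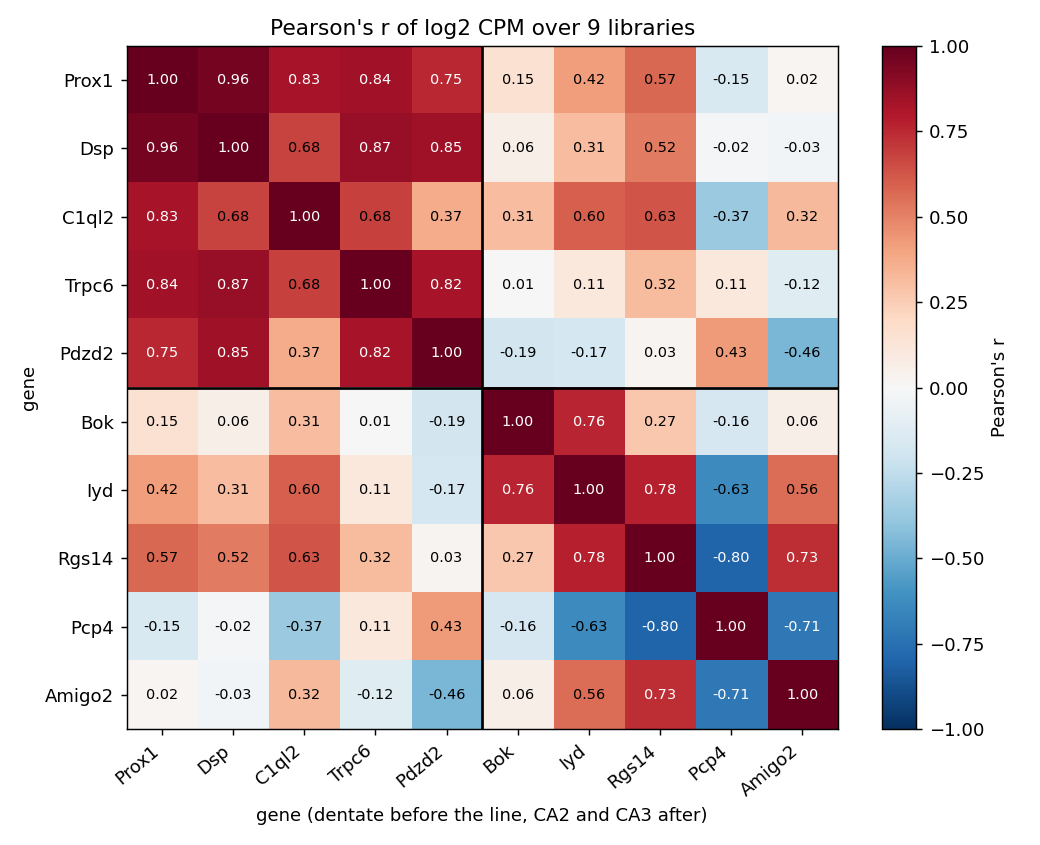
Pearson's r of log2 CPM over 9 libraries for every pair of the 10 genes, coloured from -1 (blue) to 1 (red), with lines between the dentate class and the CA2 and CA3 class. The dentate square is red throughout, with 0.96 for Prox1 and Dsp, whereas the other square holds both signs, and Pcp4 is negative with the remaining 4.

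The 5 tested genes whose log2 CPM followed the mean of the 5 dentate genes most closely, among 14931 candidates averaging 1 CPM or more, were Fnip2 (r = 0.98), Sema5a (0.98), Cyp7b1 (0.98), Smc1a (0.97) and Fam163b (0.96) over 9 libraries. For the mean of the CA2 and CA3 genes they were Scube2 (0.96), Sap18b (0.92), Clmp (0.91), Itpk1 (0.91) and Acsl1 (0.91). These are the top of a ranking over all candidates and were given no test.

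Other genes of the same fields were listed for comparison, with earlier results of these data known. Of 10 further dentate genes, 0 were called in any of the comparisons. Their median log2 fold change was -0.12 in MRL/lpr against MRL/mpj, with 6 of 10 negative, and -0.39 in MRL/lpr+MSC against MRL/mpj, with 10 of 10 negative. The most abundant were Fam163b, at 246 ± 51.2 CPM in MRL/mpj, 255 ± 103 in MRL/lpr and 184 ± 71.8 in MRL/lpr+MSC libraries, and Calb1, the calcium buffer calbindin, at 157 ± 35.9, 169 ± 39.1 and 149 ± 23.3 CPM. Across the 9 libraries the mean log2 CPM of the 10 further genes had an r of 0.98 with that of the 5 dentate genes, so both lists rank the libraries alike.

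Of 8 further CA3 genes 0 were called in any comparison, with a median log2 fold change of -0.30 in MRL/lpr against MRL/mpj, 7 of 8 negative. Dkk3, a secreted Dickkopf-family glycoprotein and the most abundant, was at 529 ± 90.8 CPM in MRL/mpj, 287 ± 84.2 in MRL/lpr (limma adjusted p 0.067) and 405 ± 173 in MRL/lpr+MSC libraries. For 6 further CA2 genes the median log2 fold change was 0.39 in MRL/lpr against MRL/mpj, with 5 of 6 positive. In MRL/lpr+MSC against MRL/mpj it was 0.04, with 3 positive and 3 negative. Of these 6 genes, 1 was called, higher in MRL/lpr+MSC than in MRL/mpj libraries. This was Necab2, a neuronal calcium-binding protein, at 101 ± 24.2 against 52.7 ± 3.14 CPM (log2 fold change 0.91 ± 0.17, limma adjusted p 0.032). In MRL/lpr it was at 86.2 ± 34.3 CPM and not called. Across the 9 libraries the mean log2 CPM of the 6 further CA2 genes had an r of 0.53 with the dentate mean. After each group's mean was removed, r was 0.79, so varying with the dentate genes was not particular to dentate lists. For the 8 further CA3 genes r was 0.13 and -0.01. The part of neighbouring tissue in the values of the further CA2 genes was not tested.

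CA1 differed from the fields described here in the number of calls. Of 6 CA1 genes matched, 4 were called as lower in MRL/lpr libraries, among them Mpped1, Pou3f1 and Fibcd1, with log2 fold changes of -1.27, -1.22 and -1.11, and the median of the 6 was -1.17. In MRL/lpr+MSC against MRL/mpj 1 of the 6 was called (Fibcd1, -0.79). The difference between the classes themselves was not tested. MRL/lpr replicate 2 joined the highest dentate sum (680 CPM over the 5 genes) with the lowest CA1 sum (286 CPM over 6 genes), a ratio of 2.38, whereas the other 8 libraries had ratios of 0.452 to 0.706. In bulk tissue, fewer cells of a type and less RNA per cell cannot be told apart.

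Markers of other cell types moved with the values above in these ways. The sum of 9 meningeal genes was 272 CPM in MRL/lpr replicate 2, the highest, and 47.6 CPM in MRL/lpr+MSC replicate 1, the lowest, and over the 9 libraries the mean log2 CPM of the list had an r of 0.79 with the dentate mean. The choroid plexus list had an r of 0.52 with the dentate mean. Its sum was 9765 CPM in the former library and 101 CPM in the latter, again the highest and the lowest of the 9. After each group's mean was removed, r was 0.85 for the meningeal and 0.79 for the choroid plexus list. With and without the group means, r was 0.60 and 0.48 for 6 mural genes, and -0.44 and -0.76 for 8 interneuron genes. For 5 endothelial genes it was -0.56 and -0.31. The meningeal and choroid plexus lists had every gene above 0 counts in every library. The sum of 6 cortical genes was highest in MRL/lpr+MSC replicate 1, at 188 CPM. Over the 9 libraries the cortical mean had an r of -0.56 with the dentate mean, and -0.29 after each group's mean was removed. The part of meningeal, choroid plexus or cortical tissue in the dentate values was not tested.

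Rgs14 ran with the hippocampal glutamatergic list (r = 0.96 over 9 libraries), while Pcp4 ran against it (r = -0.87). Pcp4 had an r of 0.78 with 8 striatal genes, 0.74 with 8 thalamic genes and 0.84 with 6 immature granule cell genes, whereas Rgs14 had -0.80, -0.65 and -0.84 with the same lists and Amigo2 -0.69, -0.87 and -0.91. Amigo2 had an r of 0.73 with the glutamatergic list. Pcp4 is known to be expressed in striatum and thalamus as well as in CA2. The thalamic sum was 124 to 164 CPM in MRL/mpj, 193 to 607 CPM in MRL/lpr and 63.5 to 516 CPM in MRL/lpr+MSC libraries, with the highest value in MRL/lpr replicate 3, the library with the most Pcp4 and the least Rgs14. The striatal sum was 176 to 197, 201 to 253 and 185 to 318 CPM in the same order. Most of the thalamic sum in MRL/lpr came from Zic1 (206 ± 143 CPM, against 22.2 ± 7.86 in MRL/mpj) and Prkcd (136 ± 45.3 against 82.7 ± 18.7). Of the 7 thalamic genes tested in MRL/lpr against MRL/mpj, 6 had positive and 1 a negative difference. The remaining gene of the 8 was too scarce to be tested. Of the striatal genes 1 of 8 was called, higher, in MRL/lpr against MRL/mpj and 0 in MRL/lpr+MSC against MRL/mpj, and of 7 thalamic genes tested 0 were called in either. Of the immature granule cell genes, Sox11, a transcription factor of young neurons, was called as higher in MRL/lpr libraries than in those of MRL/mpj (38.7 ± 6.65 against 20.05 ± 3.91 CPM, limma adjusted p 0.027), and it was the 1 called of 6. The part of neighbouring tissue in the values of Pcp4, Rgs14 and Amigo2 was not tested.

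**Figure D4:**
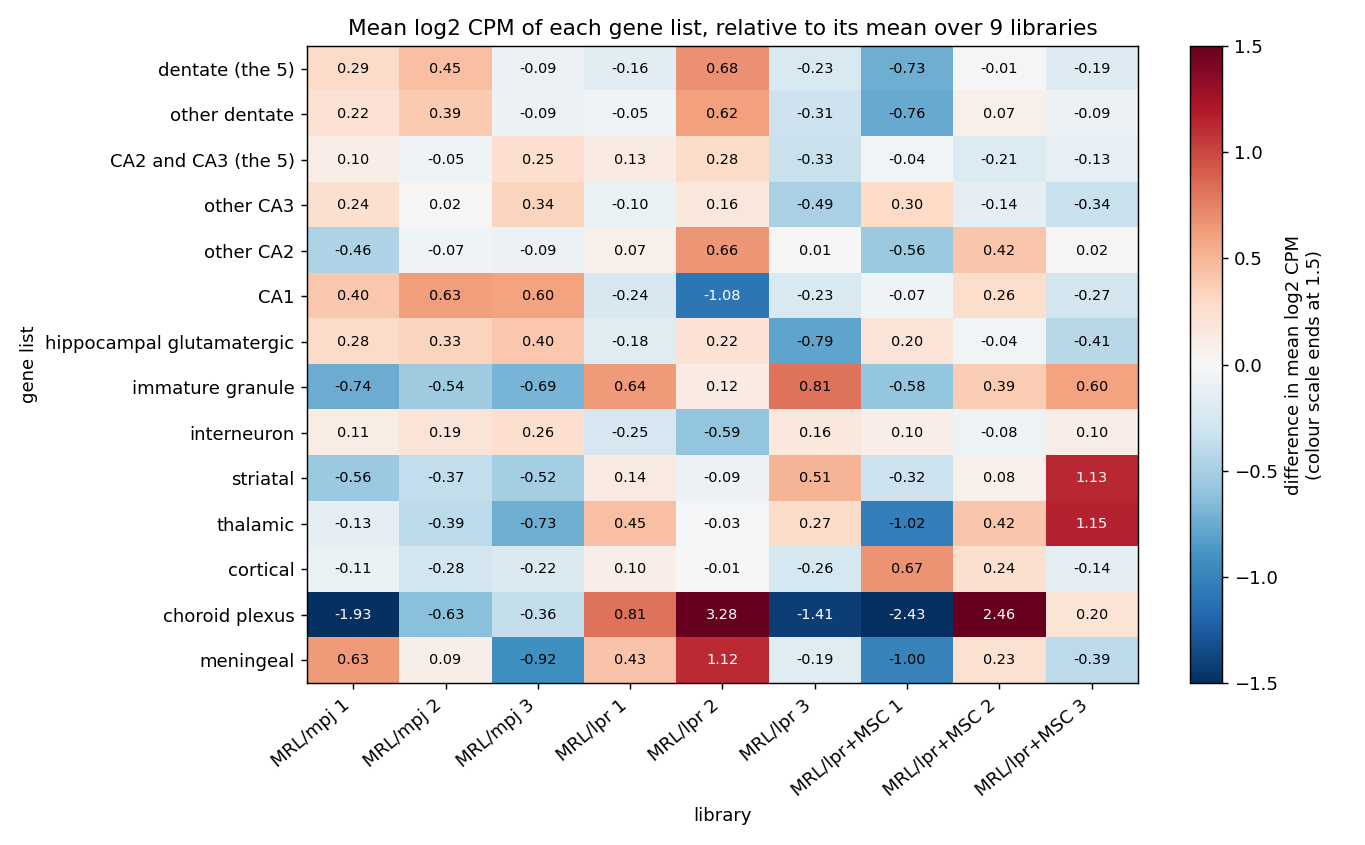
Mean log2 CPM of 14 gene lists in each library, as the difference from the list's mean over the 9 libraries, with red above and blue below and the colour scale ending at 1.5. The top 2 entries, the 5 dentate genes and 10 further dentate genes, run in parallel from 0.68 and 0.62 in MRL/lpr 2 to -0.73 and -0.76 in MRL/lpr+MSC 1, and the CA1 entry falls to -1.08 in MRL/lpr 2.

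Scaling each library to its glutamatergic genes in place of all genes asks how the 10 genes stand relative to the summed counts of those 5 genes. Camk2a made up most of that sum, at 5534 of 8241 CPM in MRL/mpj and 4122 of 5898 CPM in MRL/lpr, so the scale largely follows 1 transcript. This scaling raised the median of all genes by 0.50 on the log2 scale in MRL/lpr against MRL/mpj. Under it Pcp4 (1.43), Pdzd2 (0.68) and Bok (0.63) were called higher in MRL/lpr, with limma adjusted p of 0.0048, 0.030 and 0.042, among 4158 genes called, and Rgs14 stood at -0.18. Each of these values contains the shift that all genes shared. In MRL/lpr+MSC against MRL/mpj and in MRL/lpr+MSC against MRL/lpr, 0 of the 10 were called under this scaling.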

How the data were processed

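Hippocampal RNA at 6 weeks of age was measured by RNA-seq with a poly(A)-selecting kit, 3 libraries a group, grouped by their labels. The authors aligned reads with STAR to mm10 and counted them per gene with HTSeq, per the supplementary methods, whereas the submitters' processing notes name TopHat2 and GRCm38. The matrix the authors deposited holds these raw counts, with no normalization and with the columns separated by vertical bars, a layout that kept the unit from being registered as counts. The quasi-likelihood test planned as the main test was therefore not run, and limma voom, which the plan named for that case, was used. The authors also deposited FPKM values, 1 table per library, which followed the counts of their own library.

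Symbols came from GENCODE GRCm38 (47224 of 47643 genes matched) and promoter sequences from RefSeq. Counts were scaled by the trimmed mean of M values (30% and 5% trimmed). Genes with a CPM worth 10 counts in a library of median size in at least 3 libraries, and 15 counts in all, were tested with limma 3.58.1 in R 4.3.3, fitted per comparison on 6 libraries with voom weights and robust moderation of the variances, and p-values were adjusted by Benjamini and Hochberg's method within each comparison. The fit was tested on simulated counts. Columns without a sample numbered 0. Correlations used exact permutation over libraries.

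The members and lists were chosen with earlier results of these data known. All 10 members are named. Of other lists, up to 4 called genes with the largest change are named, or the most abundant where none was called. A gene that this rule would name is not reported here. The 5 genes nearest to each class mean were ranked by Pearson's r. Alternatives were other scalings, no filter, 1 fit over all 9 libraries, a block for the replicate number, a test against 1.5-fold and each library left out. limma-trend, library quality weights, scaling to library totals and leaving out 2 libraries together were added after seeing the data. Totals of 19475804 to 26912031 counts set the precision, and floors cover counting error only. The study's protein, imaging and behaviour data were not analysed here.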

Additional observations from a re-analysis of the deposited data

How the results depend on the processing

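The count of the 10 genes called stayed at 0 in each comparison under median-of-ratios scaling, no filter, all 9 libraries in 1 fit, the replicate block, the test against 1.5-fold, limma-trend and scaling to library totals. It was 3 in MRL/lpr against MRL/mpj under scaling to glutamatergic genes, beside 4158 of 16697 genes tested. Under library quality weights it was 2 there (Rgs14 and Pcp4), beside 2065 of 16697 genes tested. In MRL/lpr+MSC against MRL/mpj these weights gave 1 (Rgs14), beside 1177 of 16196. With 1 library left out the count ranged from 0 to 2 in both comparisons with MRL/mpj and was 0 throughout in MRL/lpr+MSC against MRL/lpr. A count of 2 came without MRL/lpr replicate 2 (beside 1695 of 17120 genes tested) and without MRL/lpr+MSC replicate 1 (beside 1514 of 16787).

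Genes called in MRL/lpr against MRL/mpj numbered 967 (58.8% higher), and 4158 (97.02% higher) under glutamatergic scaling, 2065 (73.0% higher) under quality weights, 104 under the test against 1.5-fold, 1217 (77.7% higher) under library totals and 165 to 1695 with 1 library left out (lowest without MRL/mpj replicate 3, highest without MRL/lpr replicate 2). Most calls were lower without any 1 MRL/mpj replicate (39.1%, 37.7% and 37.6% higher without replicates 1 to 3), and 75.2% were higher without MRL/lpr replicate 3. In MRL/lpr+MSC against MRL/mpj they numbered 556 (56.3% higher), and 1505 (92.2% higher), 1177 (68.1% higher) and 100 under the same first 3, and 193 to 1514 with 1 left out (lowest without MRL/mpj replicate 1, highest without MRL/lpr+MSC replicate 1). There, 48.2%, 40.8% and 45.1% were higher without MRL/mpj replicates 1 to 3, and 72.1% without MRL/lpr+MSC replicate 1. Glutamatergic scaling gave 64 in MRL/lpr+MSC against MRL/lpr in place of 0. Its shift of the median of all genes was 0.50, 0.35 and -0.16 in the 3 comparisons, and library totals shifted it by 0.13 in the first. The cause of these changes was not tested.

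With the replicate block the counts were 1127, 283 and 0. The labels do not say whether the numbers pair the libraries. Correlations of deviations between libraries of the same number ran from -0.21 to 0.36. In each comparison replicates 2 and 3 of the first-named group were closest to their own number, and replicate 1 was not. Seen from MRL/mpj replicate 2, MRL/lpr+MSC replicate 1 (0.23) was closer than MRL/lpr+MSC replicate 2 (0.13).

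Signs turned for small differences. In MRL/lpr against MRL/mpj glutamatergic scaling gave 0.32 for Prox1, 0.17 for Dsp, 0.37 for C1ql2, 0.42 for Trpc6, 0.065 for Iyd and 0.26 for Amigo2, all under its shift of 0.50, and library totals gave 0.029 for Trpc6. With 1 library left out the log2 fold changes ranged from -0.53 to 0.057 (Prox1), -0.53 to 0.073 (C1ql2), -0.28 to 0.068 (Trpc6), -0.043 to 0.31 (Bok) and -0.85 to 0.21 (Iyd). In MRL/lpr+MSC against MRL/mpj, Bok was -0.0013 under median-of-ratios scaling, -0.046 under quality weights and -0.18 to 0.10 with 1 left out, Amigo2 was 0.19 under glutamatergic scaling, and Pcp4 was -0.18 to 0.57 with 1 left out. In MRL/lpr+MSC against MRL/lpr, glutamatergic scaling gave -0.033 for Rgs14 and -0.068 for Amigo2. Leaving out 1 library gave -0.53 to 0.055 (Prox1), -0.47 to 0.14 (C1ql2), -0.82 to 0.23 (Iyd), -0.11 to 0.39 (Rgs14) and -0.033 to 0.16 (Amigo2), and leaving out both extreme libraries gave 0.23 (Prox1), 0.20 (Dsp) and 0.055 (C1ql2). The planned quasi-likelihood and Wald tests on registered counts were not run. A call asks for 1.5-fold, so smaller differences could not be called at any precision. Pcp4 and Iyd rest on few counts.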
